A study of Mus musculus with 15 samples.

Results

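The genes described here are 8 genes of vitamin A handling and the visual cycle in the retinal pigment epithelium (RPE), Stra6, Ttr, Lrat, Rpe65, Rlbp1, Rdh5, Rdh10 and Rgr, and Best1, a chloride channel gene usually taken as an RPE marker, whose values in these eyecups did not follow that label. They were picked out by name, with no threshold on a measured value although earlier results of these data were known, and all 9 were found among the 55421 Ensembl genes of the count files. RNA was sequenced from posterior eyecups, the RPE, choroid and sclera left once the neural retina was taken away, of 2.5-month-old mice of both sexes on a C57BL/6J background. The 3 groups were WT mice (n = 4), heterozygotes with 1 mutant allele of Tmem135 (FUN025/+, n = 6) and homozygotes with 2 (FUN025/FUN025, n = 5). FUN025 is a mutation of Tmem135, a gene of peroxisomes and mitochondria, which every cell of these animals carried from conception, so that no value below can be assigned to its action in the RPE alone. Each library came from the eyecups of 1 mouse. The comparisons asked whether these genes differed between the genotypes at an early age.

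Rods and cones detect light with an opsin bound to a vitamin A derivative, the cis form of retinal. Light turns it into the all-trans form, which leaves the opsin as retinal, is reduced to retinol in the photoreceptor and is sent to the RPE, where a chain of enzymes and binding proteins stores it, turns it back to the cis form and returns it to the photoreceptors. The RPE also takes new retinol from the choroidal blood. Loss of several of these genes causes retinal dystrophy or night blindness in people, and their RNAs are among the standard markers of the RPE.

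Total counts per library were 10903183 to 20029919, and the 4 WT libraries (18094977 to 20029919) were deeper than all 11 mutant libraries (10903183 to 15038383). Levels are CPM, counts scaled to a fixed library total and adjusted by TMM factors of 0.976 to 1.02, and 3 counts corresponded to 0.15 to 0.282 CPM. Tmem135 RNA itself was 64.0 ± 2.99 CPM in WT, 75.0 ± 7.3 in FUN025/+ and 88.3 ± 4.57 in FUN025/FUN025 eyecups (SD). Rod marker RNA differed between libraries: the summed level of 12 rod markers was 365 to 2600 CPM in WT (2600 in 1 library), 190 to 803 in FUN025/+ and 188 to 527 in FUN025/FUN025 eyecups, and all 12 had lower estimates in both mutant groups than in WT. Whether this came from residual retina was not tested. Choroid endothelium markers (8 genes) summed to 1030 to 1190, 811 to 1110 and 731 to 913 CPM in WT, FUN025/+ and FUN025/FUN025, with 3 and 6 of 8 called lower than WT by edgeR in the 2 mutant groups, where 13.7% and 14.0% of all genes were called. The call of Plvap in FUN025/+ was lost in 21 of 29 alternative settings and that of Emcn in FUN025/FUN025 in 16. Those of Cdh5 and Esam in FUN025/FUN025 held in all 29. Striated muscle markers (7 tested) summed to 2490 to 4380, 1230 to 3000 and 1800 to 2200 CPM, with 2 of 7 called lower in each mutant group by edgeR, where 13.7% and 14.0% of all genes were called. DESeq2 called 4 of the 7 in each, and limma-trend 3 and 2. The part of these tissue markers in the differences below was not tested, apart from the rod and RPE marker covariates. The summed level of 12 RPE markers other than the members, among them Slc16a8, Kcnj13, Enpp2 and Mertk, was 6170 to 7080, 6320 to 7830 and 5710 to 7240 CPM, and each of the 12 was detected in every group.

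In GRCm38, Rpe65 (ENSMUSG00000028174) is at chr3:159599175-159625321 and Lrat (ENSMUSG00000028003) at chr3:82892579-82903973. Elsewhere lie Rdh10 (ENSMUSG00000025921, chr1:16105774-16133734), Rlbp1 (ENSMUSG00000039194, chr7:79374870-79387048), Stra6 (ENSMUSG00000032327, chr9:58063788-58153996), Rdh5 (ENSMUSG00000025350, chr10:128913593-128922888), Rgr (ENSMUSG00000021804, chr14:37034909-37048964) and Best1 (ENSMUSG00000037418, chr19:9985174-10001633). Exons of Rdh5 overlap those of Bloc1s1 on the same strand, and 22.5% of its 31-base words also occur in other genes, so part of its reads could not be assigned with certainty. For the other 8 members that share was at most 1.17%.

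The bases before the transcription start are shown for 3 members of high level that varied together (Rpe65, Rlbp1 and Rgr) and for Best1, which did not vary with them. RefSeq gave promoter windows (GRCm38.p6) for 7 of the 9 members, 10 windows in all. Capitals mark the letters TAATCC, the core bound by OTX2 and CRX, and CATGTG, an E-box of the kind bound by MITF, each searched on both strands over the 250 bases before the start and not overlapping each other. Each line ends at the base before the start of transcription.
Rpe65 chr3:159598931-159599180, plus strand: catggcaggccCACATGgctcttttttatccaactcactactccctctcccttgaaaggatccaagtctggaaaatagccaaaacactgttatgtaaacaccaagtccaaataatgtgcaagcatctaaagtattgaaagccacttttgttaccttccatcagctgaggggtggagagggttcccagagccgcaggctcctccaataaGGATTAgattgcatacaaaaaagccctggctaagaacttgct
Rlbp1 chr7:79387028-79387277, minus strand: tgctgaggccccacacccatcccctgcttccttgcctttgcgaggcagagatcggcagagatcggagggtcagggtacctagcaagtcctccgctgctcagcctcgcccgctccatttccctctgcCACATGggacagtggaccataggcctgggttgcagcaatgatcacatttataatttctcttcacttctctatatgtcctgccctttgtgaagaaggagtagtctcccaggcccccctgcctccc
Rgr chr14:37049015-37049264, minus strand: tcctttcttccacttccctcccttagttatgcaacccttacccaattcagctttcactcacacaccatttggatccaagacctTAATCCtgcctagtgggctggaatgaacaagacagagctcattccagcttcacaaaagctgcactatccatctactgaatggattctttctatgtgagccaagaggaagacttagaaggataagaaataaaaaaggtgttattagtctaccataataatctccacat
Best1 chr19:10001634-10001883, minus strand: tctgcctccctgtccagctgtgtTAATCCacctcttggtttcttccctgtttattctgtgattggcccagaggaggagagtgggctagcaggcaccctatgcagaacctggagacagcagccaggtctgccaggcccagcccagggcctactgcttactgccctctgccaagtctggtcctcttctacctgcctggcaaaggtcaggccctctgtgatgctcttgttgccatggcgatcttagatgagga
TAATCC or its reverse complement GGATTA was present in the windows of Rpe65, 42 bases before the start, Rgr, 167 bases before it, and Best1, 227 bases before it, against 6.25% of all 32851 windows of this length. CATGTG or its reverse complement CACATG was in the windows of Rpe65 (239 bases before the start) and Rlbp1 (124 bases before it), against 12.3% of all windows. The windows of Lrat, Rdh5 and Stra6 (4 starts) held neither. Rpe65 was the member with both matches. Best1 carried a match for the OTX2 core as Rpe65 and Rgr did, although its RNA level was far below theirs. A match is a run of letters, not a measured binding site.

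Of the genes measured here, 8 members were among the most abundant transcripts of the eyecup and Best1 was not. Per kilobase of exon, Ttr ranked 3 of 18958 genes in WT eyecups at 5070 ± 564 CPM per kb (SD, n = 4). Rgr followed at 1310 ± 126, Rpe65 at 1020 ± 108, Rlbp1 at 624 ± 53.5, Rdh5 at 353 ± 34.5, Rdh10 at 302 ± 34.3, Lrat at 247 ± 29.4 and Stra6 at 116 ± 11.5 CPM per kb. In the ranking of all genes these were places 15, 20, 39, 68, 81, 108 and 317. The WT ranges of Rgr and Rpe65 overlapped, as did those of Rdh5 and Rdh10 and of Rdh10 and Lrat, whereas the other neighbours in this order did not overlap. Best1 stood at 0.855 ± 0.152 CPM per kb, the 15.4th percentile of the genes ranked. Its counts were 33 to 49 in the WT libraries, 18 to 31 in FUN025/+ and 16 to 35 in FUN025/FUN025, above the floor of 3 counts in each. By CPM, its relatives Best2 (36.8 ± 9.28 in WT) and Best3 (3.40 ± 0.41 in WT) were detected as well.

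No member passed the test in any comparison, and no member's levels were separated between any pair of genotypes. In edgeR's quasi-likelihood test with Benjamini-Hochberg adjustment over 18979 genes, 0 of the 9 members were called in FUN025/+ against WT, where 13.7% of all genes were, 0 of 9 in FUN025/FUN025 against WT, where 14.0% were, 0 of 9 in FUN025/FUN025 against FUN025/+, where 0.522% were, and 0 of 9 for the change per mutant allele, where 8.90% were. At an unadjusted p under 0.05 edgeR gave 1, 1, 6 and 1 members, and DESeq2 and limma-trend gave the same numbers. In edgeR these were Rdh10 in FUN025/+ against WT, Ttr in FUN025/FUN025 against WT and per allele, and Rpe65, Rdh5, Rdh10, Rlbp1, Rgr and Ttr between the mutants. Over all genes the unadjusted share was 28.8%, 28.6%, 6.23% and 25.9%. At the adjusted threshold DESeq2 called 1 member, Rdh10, in FUN025/FUN025 against FUN025/+ (adjusted p = 0.0228), and limma-trend called none in any of the 4 comparisons. CPM values that did not overlap between the groups were found for 10.9%, 14.8% and 1.12% of all genes in the 3 pairwise comparisons and for 0 members. Of the estimates, 7 of 9 were above 0 in FUN025/+ against WT (median 0.077 on the log2 scale), where 49.5% of all genes were, 2 of 9 in FUN025/FUN025 against WT (median -0.11), where 48.6% were, and 1 of 9, Ttr, between the mutants (median -0.19), where 48.2% were. The change per allele was above 0 for 1 of 9, Ttr, against 48.5% of all genes. These counts were not tested, and since 8 members varied together within genotypes they are not independent of each other. Of the 12 other RPE markers, 7 were above 0 in FUN025/+ against WT, and 8 and 10 were below 0 in FUN025/FUN025 against WT and between the mutants. With the rod markers as a covariate Rdh5, Rgr, Rlbp1 and Stra6 were below 0 in FUN025/+ against WT. Medians over all genes were -0.0023, -0.0071 and -0.0040 in the pairwise comparisons. The first 2 comparisons share the WT mice. The plot of levels by library shows how far the genotypes overlap.

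**Figure D1:**
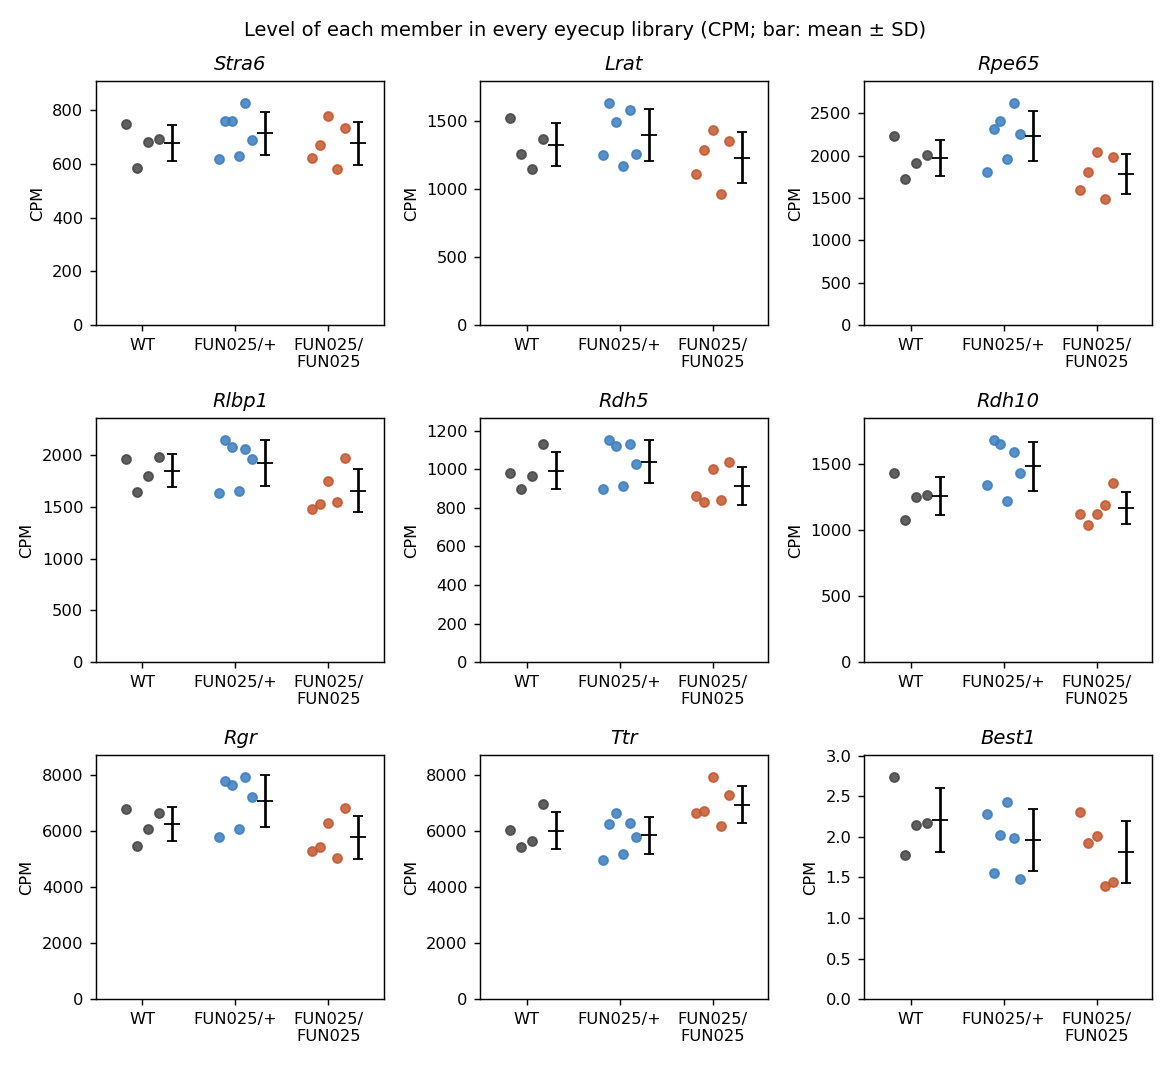
Level of each member in every library, in CPM on linear axes that start at 0, by genotype (WT n = 4, FUN025/+ n = 6, FUN025/FUN025 n = 5). Points are mice and the bar beside each group is the mean ± SD; the point clouds of the 3 genotypes overlap in all 9 panels, and Best1 lies at 1.40 to 2.73 CPM.

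Stra6 encodes the receptor through which the RPE takes retinol from its plasma carrier. It stood at 748, 587, 684 and 692 CPM in the WT libraries, at 620 to 827 in FUN025/+ (median 724) and at 623, 671, 780, 582 and 733 in FUN025/FUN025. The 3 ranges nearly coincided. FUN025/FUN025 differed from WT by 0.00052 on the log2 scale (95% CI -0.20 to 0.21, adjusted p = 0.998, edgeR). Between the mutants the difference was -0.076 (CI -0.26 to 0.11).

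Ttr encodes transthyretin, which carries thyroxine and the retinol-binding protein and is a major secreted product of the RPE (ENSMUSG00000061808, GRCm38 chr18:20665280-20674321). Its level was 6020, 5440, 5630 and 6940 CPM in WT, 4960 to 6620 in FUN025/+ (median 6020) and 6620, 6700, 7900, 6190 and 7270 in FUN025/FUN025. Of the members it was the one with a higher mean in FUN025/FUN025 (6940 ± 661) than in both other groups (6010 ± 668 in WT and 5850 ± 663 in FUN025/+), and the groups overlapped, since 3 of the 5 homozygotes lay below the highest WT value. The difference from WT was 0.21 (CI 0.0025 to 0.41, adjusted p = 0.169, edgeR) and that from FUN025/+ was 0.25 (CI 0.062 to 0.43, adjusted p = 0.509). In FUN025/+ against WT it was -0.039 (CI -0.24 to 0.16), and this estimate turned to 0.045 without WT replicate 4 and 0.0038 without FUN025/+ replicate 1.

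Lrat encodes lecithin retinol acyltransferase, which stores retinol as retinyl esters, the substrate of Rpe65. WT libraries held 1520, 1260, 1150 and 1370 CPM of Lrat, FUN025/+ libraries 1170 to 1630 (median 1370) and FUN025/FUN025 libraries 1110, 1290, 1430, 966 and 1350. The lowest value was that of a homozygote, and 1 more homozygote lay below the lowest WT value, with wide overlap of the 3 groups. The estimates were 0.078 for FUN025/+ against WT (CI -0.17 to 0.33), -0.11 for FUN025/FUN025 against WT (CI -0.36 to 0.15) and -0.18 between the mutants (CI -0.42 to 0.052).

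Rpe65 encodes the isomerohydrolase that makes the cis retinol, the defining step of the cycle. It was 2230, 1730, 1920 and 2010 CPM in WT, 1810 to 2620 in FUN025/+ (median 2290) and 1590, 1810, 2040, 1490 and 1990 in FUN025/FUN025. Heterozygotes held the 4 highest values and homozygotes the 2 lowest, but the groups overlapped. Between the mutants the level in FUN025/FUN025 was 20.1% lower (log2 difference -0.32, CI -0.54 to -0.11, adjusted p = 0.343, edgeR). Against WT it was 0.18 in FUN025/+ (CI -0.049 to 0.41, adjusted p = 0.293) and -0.15 in FUN025/FUN025 (CI -0.38 to 0.089, adjusted p = 0.419).

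Rlbp1 encodes CRALBP, which binds the cis retinoids in RPE and Müller glia. Its values were 1960, 1640, 1800 and 1980 CPM in WT, 1630 to 2140 in FUN025/+ (median 2010) and 1480, 1530, 1750, 1550 and 1970 in FUN025/FUN025. Of the homozygotes, 3 lay below every mouse of the other groups. The difference between the mutants was -0.21 (CI -0.40 to -0.025, adjusted p = 0.692, edgeR), and that of FUN025/FUN025 from WT was -0.16 (CI -0.36 to 0.05, adjusted p = 0.314). With the rod markers as a covariate the latter was -0.31 and passed (adjusted p = 0.0379). Müller glia markers (8 genes) summed to 3630 to 4040 CPM in WT, 3660 to 4410 in FUN025/+ and 3560 to 4000 in FUN025/FUN025.

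Rdh5 oxidises cis retinol to cis retinal, and Rdh10 is a retinol dehydrogenase of the RPE that also serves retinoic acid synthesis. Rdh5 was 979, 900, 963 and 1130 CPM in WT, 899 to 1150 in FUN025/+ (median 1080) and 862, 829, 1000, 842 and 1040 in FUN025/FUN025. Rdh10 was 1430, 1080, 1250 and 1270 CPM in WT, 1220 to 1680 in FUN025/+ (median 1510) and 1120, 1040, 1120, 1190 and 1360 in FUN025/FUN025. The 3 lowest Rdh5 values were those of homozygotes and the 3 highest Rdh10 values those of heterozygotes, and in both genes the groups overlapped. Rdh10 had the smallest p of the members between the mutants: 21.4% lower in FUN025/FUN025 (-0.35, CI -0.54 to -0.16, adjusted p = 0.142, edgeR), and 18.3% higher in FUN025/+ than in WT (0.24, CI 0.038 to 0.45, adjusted p = 0.105). Without FUN025/+ replicate 4, the lowest heterozygote, both passed (adjusted p = 0.0499 and 0.0436). Rdh5 differed by -0.19 between the mutants (CI -0.36 to -0.011, adjusted p = 0.747) and by -0.12 between FUN025/FUN025 and WT (CI -0.31 to 0.076).

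Rgr encodes an opsin of the RPE that binds all-trans retinal and forms the cis isomer in light. It was 6790, 5480, 6080 and 6670 CPM in WT, 5790 to 7920 in FUN025/+ (median 7440) and 5300, 5450, 6300, 5030 and 6840 in FUN025/FUN025. Heterozygotes held the 4 highest values. FUN025/FUN025 was 18.3% below FUN025/+ (-0.29, CI -0.50 to -0.085, adjusted p = 0.440, edgeR), and the differences from WT were 0.18 (CI -0.042 to 0.40) in FUN025/+ and -0.11 (CI -0.34 to 0.12) in FUN025/FUN025.

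Best1 encodes bestrophin, a calcium-activated chloride channel of the basolateral RPE membrane and not an enzyme of the cycle. Its level was 2.73, 1.78, 2.15 and 2.17 CPM in WT, 1.48 to 2.43 in FUN025/+ (median 2) and 2.30, 1.92, 2.01, 1.40 and 1.45 in FUN025/FUN025. The groups overlapped, and at these counts differences were poorly bounded: -0.17 for FUN025/+ against WT (CI -0.58 to 0.24), -0.27 for FUN025/FUN025 against WT (CI -0.70 to 0.16) and -0.10 between the mutants (CI -0.51 to 0.31). These data do not exclude a change of Best1 within these intervals.

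Apart from Best1, the members varied together from mouse to mouse within a genotype. After subtracting genotype means from log2 CPM, Pearson's r between pairs of the other 8 was 0.57 (Lrat and Rdh10) to 0.97 (Rpe65 and Stra6, rho 0.96, and Rlbp1 and Rgr, rho 0.93) over 15 libraries. Best1 had r of -0.35 to 0.066 with them. The mean of the 12 RPE markers followed the same 8 members, with r from 0.64 for Rdh10 to 0.96 for Rpe65, and followed Best1 at -0.042. This was not particular to RPE markers. Macrophage markers also followed these 8 members, with r of 0.49 (Rpe65) to 0.72 (Rdh5). For striated muscle markers r was 0.28 (Lrat) to 0.59 (Rpe65). Other lists of RPE or retinoid genes did not follow them: with these 8 members r was -0.42 to -0.61 for the RPE transcription factors, -0.31 to 0.045 for bestrophins and ion transport, and -0.57 to -0.71 for other retinol and retinal enzymes. Rod markers ran against them, with r of -0.18 (Lrat) to -0.66 (Rlbp1, Rdh5 and Rdh10), but without the 2 farthest libraries r was only -0.15 for Rpe65 (from -0.46), -0.14 for Stra6 (from -0.45) and -0.048 for Lrat, and -0.31 to -0.54 for the other 5. These points share a dissection and a scaling to 1 total, so that more of one tissue lowers the CPM of another. Fewer RPE cells and less RNA per RPE cell cannot be told apart in such bulk tissue. Of all lists compared, Best1 had its highest r with fibroblast markers (r = 0.70, rho 0.66, and 0.54 without the 2 libraries farthest from the median). Its next highest was with the genes of retinoic acid synthesis, breakdown and reception (r = 0.56). Its counts were only 16 to 49 per library.

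**Figure D2:**
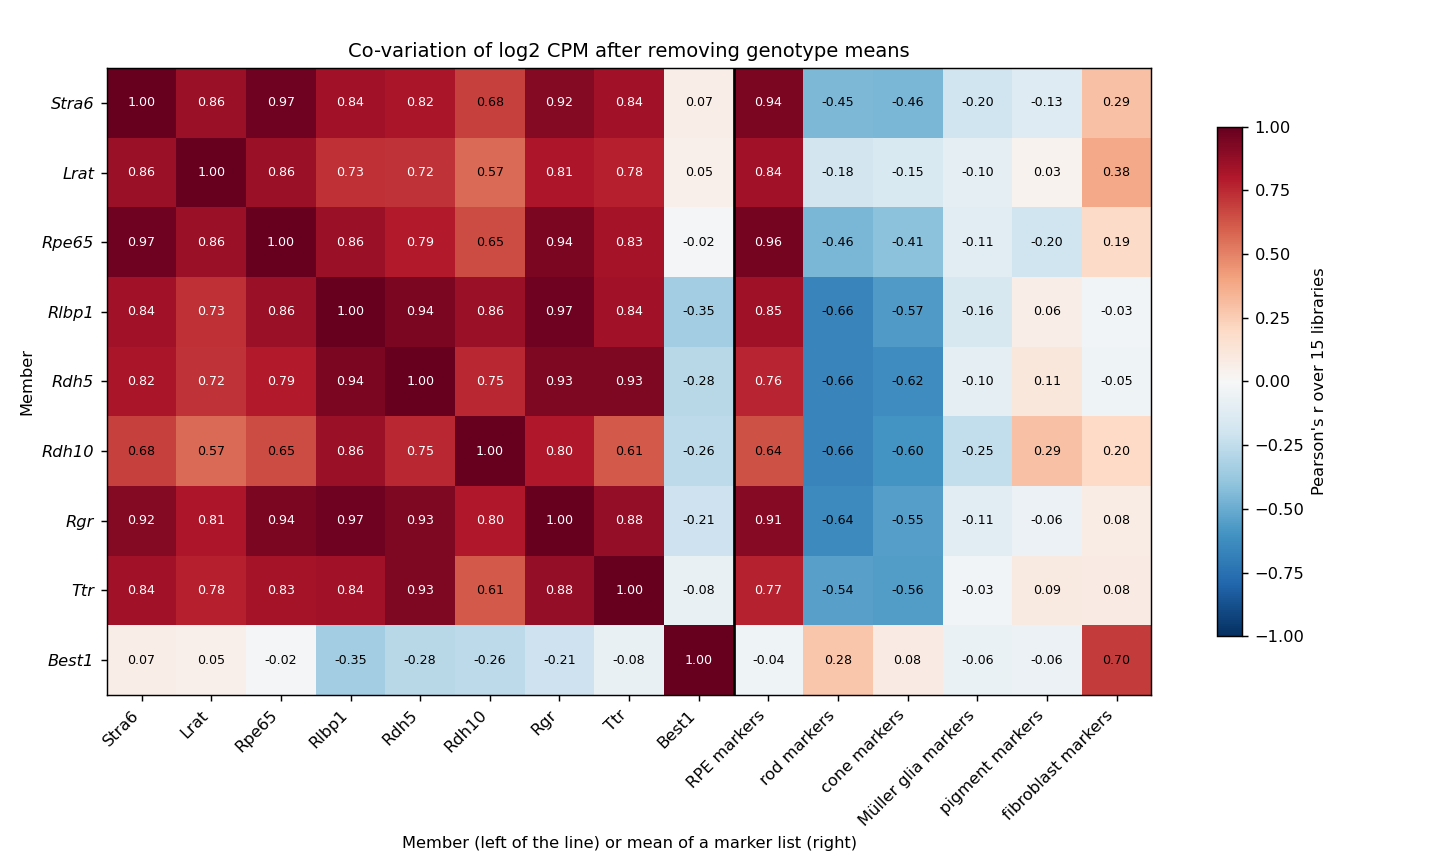
Pearson's r of log2 CPM over 15 libraries after genotype means were removed, between members (left of the line) and between each member and the mean of a marker list (right). Members other than Best1 correlate at 0.57 to 0.97 with each other and at 0.64 to 0.96 with the RPE markers, whereas the Best1 row lies between -0.35 and 0.066 among members and reaches 0.70 with fibroblast markers.

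The 3 genes most like each member by this r were searched among 17586 genes of at least 1 CPM. For Rpe65 they were Stra6 (0.97), Abhd5, a co-activator of lipid-droplet lipase (0.96), and Me1, a malic enzyme (0.96), and for Stra6 they were Me1, Abhd5 and Rpe65 (0.97 each). Rlbp1 and Rgr were nearest to each other (0.97), followed by Fez2 for both (0.96 and 0.97), and then by Slc16a1, a lactate transporter, for Rlbp1 (0.96) and Tes for Rgr (0.96). Rdh5 had among its nearest Bsg, the partner of the lactate transporters (0.95), and the lysosomal protease Ctsd (0.95). Ttr was nearest to Rapgef4 (0.94), Ctsd (0.94) and Pla2g7 (0.93), and Rdh10 to Col8a2 (0.95), Pip4k2c (0.94) and Rpap3 (0.92). Lrat had among its nearest Tshr (0.95) and Efcab14 (0.94). None of the 3 nearest to Best1 was a member: they were Fkbp1b (0.92), the mitochondrial tRNA gene mt-Tt (0.90) and Aebp1 (0.89), a gene of connective tissue.

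Since 8 members tracked these 12 RPE markers, the comparison was repeated with the mean of those 12 markers as a covariate in the same edgeR fit. Ttr then passed the test as higher in FUN025/FUN025, by 0.31 against WT (CI 0.16 to 0.46, adjusted p = 0.00758) and by 0.38 against FUN025/+ (CI 0.24 to 0.52, adjusted p = 0.00868), and by 0.15 per mutant allele (adjusted p = 0.0496). Rpe65 passed as higher in FUN025/+ than in WT, by 0.14 (CI 0.05 to 0.23, adjusted p = 0.0358). No other member passed in this fit, in which 14.8%, 14.7%, 0.643% and 13.5% of all genes were called in the 4 comparisons. The estimates of Rpe65, Lrat, Rdh10 and Rgr for FUN025/FUN025 against WT moved to 0.016, 0.042, 0.00027 and 0.033, from values below 0. The rod marker covariate moved them the other way, to -0.26 for Rpe65, -0.27 for Rdh10, -0.28 for Rgr and -0.26 for Rdh5, with 5 members at an unadjusted p under 0.05 and 1, Rlbp1, past the threshold, and it lowered the difference of Ttr from WT to 0.095 (adjusted p = 0.595). The shares of all genes in the rod marker fit are not given here, so these counts were not compared with them. Without a covariate the shares in this comparison were 28.6% unadjusted and 14.0% adjusted. The RPE marker covariate was itself measured in these eyecups and 1 of its 12 genes, Trpm3, was called between genotypes. Ttr passed in both comparisons with Trpm3 left out of it, and also in DESeq2 and limma-trend with this covariate. Leaving out each mouse in turn kept Ttr past the threshold in 15 of 15 fits against WT (0.28 to 0.40) and in 13 of 15 against FUN025/+ (0.35 to 0.41). The exceptions were FUN025/+ replicate 1 (adjusted p = 0.0733) and FUN025/FUN025 replicate 3 (0.0936). The call of Rpe65 was kept in 7 of 15. Under alternatives to this fit other members passed as well: with Trpm3 left out of the covariate, and in DESeq2, Rdh10 (adjusted p = 0.0336 and 0.0320) and Rgr (0.0274 and 0.0292) in FUN025/+ against WT and Stra6 (0.0187 and 0.0150) in FUN025/FUN025 against WT. Without FUN025/+ replicate 4 Rdh10 (0.0240) and Rgr (0.0455) also passed in FUN025/+ against WT, as did Rgr without WT replicate 4 (0.0347).

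**Figure D3:**
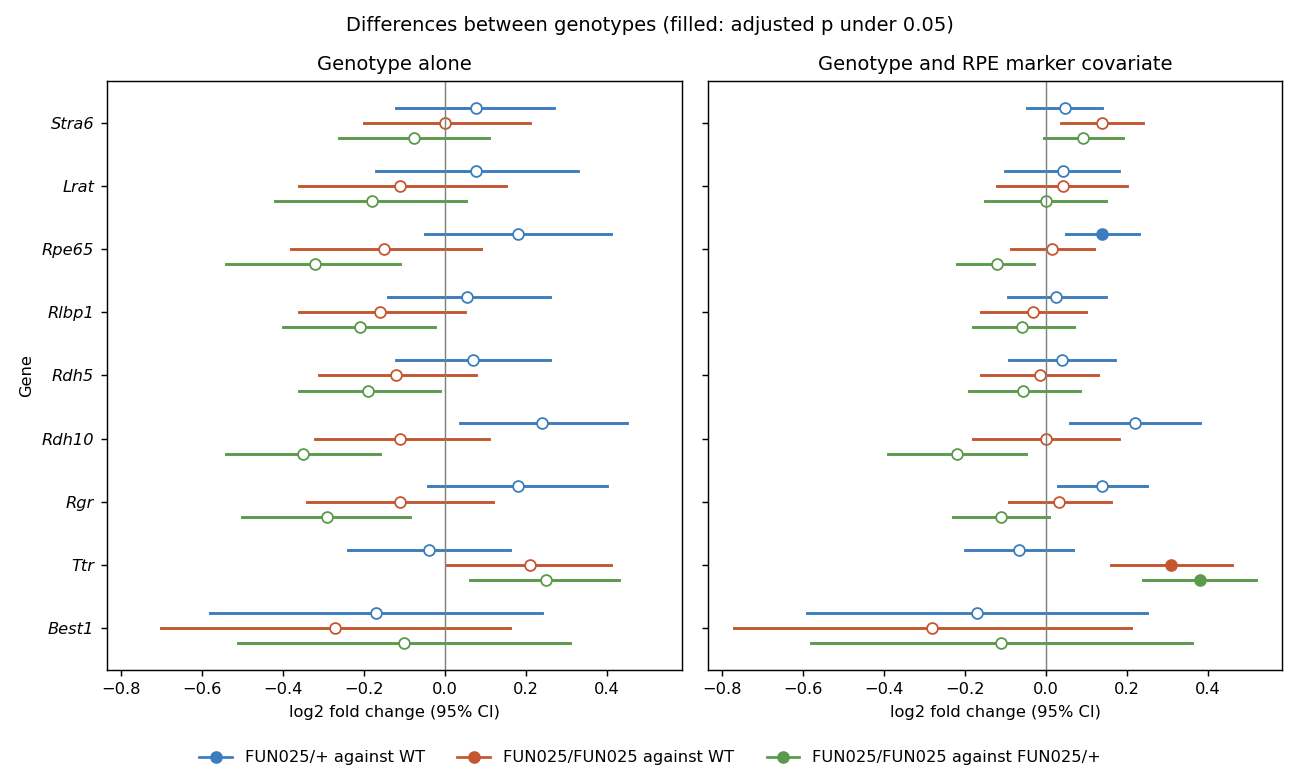
log2 fold change of each member with its 95% confidence interval in the 3 pairwise comparisons, from the fit of genotype alone (left) and with the RPE marker covariate (right). Filled points passed at an adjusted p under 0.05: none on the left, and on the right Ttr in both comparisons of FUN025/FUN025 and Rpe65 in FUN025/+ against WT.

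The ratio of 2 RNAs within a library needs no scaling. Ttr counts were 2.69, 3.14, 2.94 and 3.46 times those of Rpe65 in WT, 2.40 to 2.74 times in FUN025/+ and 4.17, 3.70, 3.88, 4.17 and 3.65 times in FUN025/FUN025. All 5 homozygotes lay above all 10 other mice. The same held for Ttr over Rgr (1.06 to 1.25 in FUN025/FUN025, 0.887 to 1.04 in WT, 0.794 to 0.866 in FUN025/+), over Rlbp1, over Rdh5 and over Lrat. Over Rdh10 and Stra6 the homozygotes lay above every heterozygote but overlapped WT. For comparison, 7.17% of 16562 genes were above all WT mice relative to Rpe65 in FUN025/FUN025, and 4.75% above all FUN025/+ mice. Relative to Rdh5 these shares were 7.04% and 1.71%. They were 5.34% and 2.90% relative to Rgr, 7.58% and 1.47% to Rlbp1, and 4.30% and 1.04% to Lrat. Above all FUN025/+ mice the share was 7.50% relative to Rdh10 and 0.634% relative to Stra6. All these ratios share Ttr as the numerator, and their denominators varied together, so they are not independent of each other. Stra6 relative to Rpe65 was likewise 0.368 to 0.392 in FUN025/FUN025, 0.335 to 0.357 in WT and 0.305 to 0.342 in FUN025/+. These ratios were examined after the levels had been seen, and no test was run on them. Relative to Rpe65, Rdh5, Rdh10, Rlbp1, Rgr, Lrat and Best1 of the homozygotes overlapped both other groups.

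**Figure D4:**
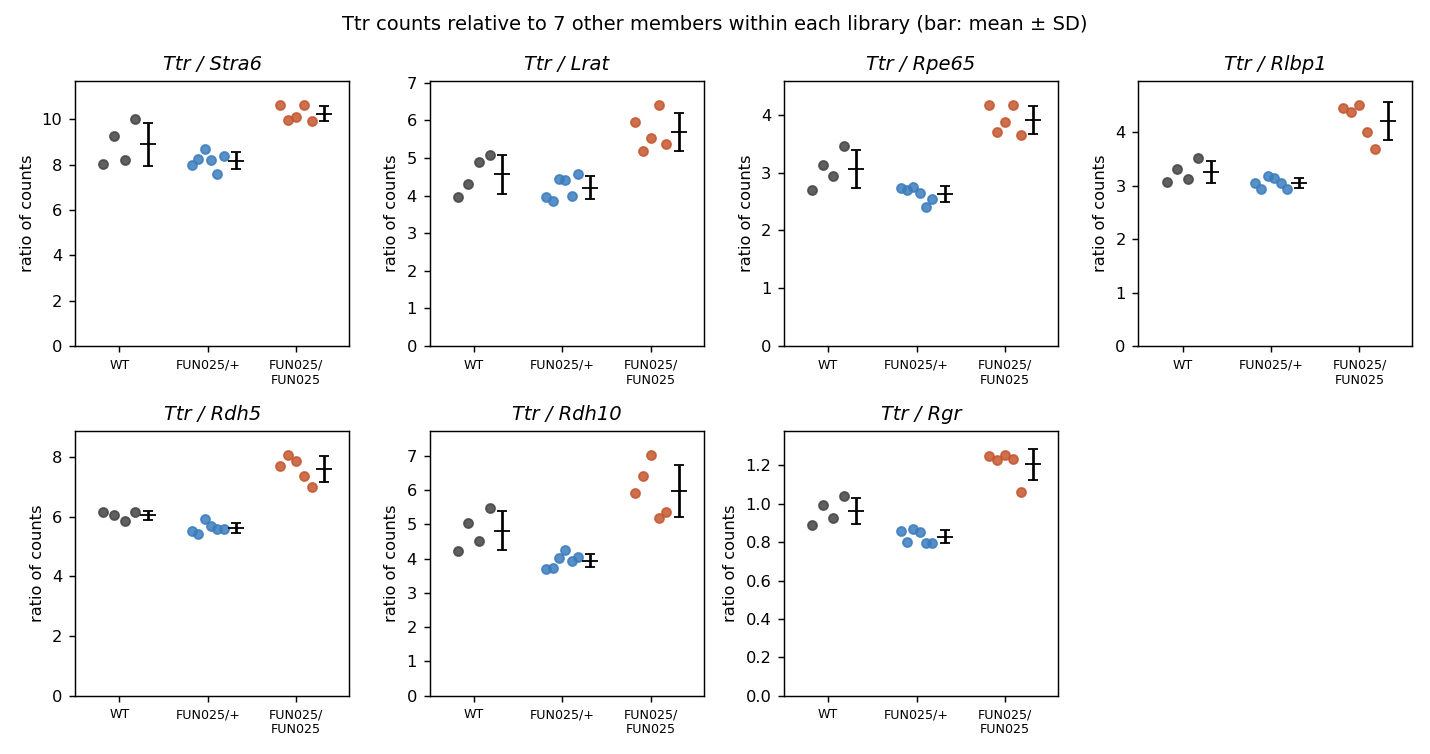
Ttr counts divided by the counts of 7 other members in each library, by genotype, on linear axes that start at 0; points are mice and the bar is the mean ± SD. The 5 FUN025/FUN025 mice lie above the 6 FUN025/+ mice in all 7 panels and above the 4 WT mice in 5, the exceptions being Rdh10 and Stra6.

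Ttr RNA is also made by the ciliary epithelium, which borders the RPE. The summed level of 6 ciliary body and iris markers (Col9a1, Ptgds, Aqp1, Slc4a4, Best2 and Zic1) was 8480 to 9690 CPM in WT, 7100 to 8270 in FUN025/+ and 8260 to 9460 in FUN025/FUN025, and 0 of the 6 passed the edgeR test in any pairwise comparison, with 1 at an unadjusted p under 0.05 in each (DESeq2 called 1 in FUN025/+ against WT, and limma-trend 0). Most of this sum was 1 gene, Ptgds, at 8190 ± 570 CPM in WT, 7200 ± 431 in FUN025/+ and 8130 ± 540 in FUN025/FUN025. Within genotypes the mean log2 CPM of the 6 markers had r = -0.66 with Ttr (rho -0.73). This was not particular to Ttr, since r was -0.59 (Rpe65) to -0.72 (Lrat) with the other members apart from Best1. The part of the 6 markers in the result on Ttr was not tested.

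Other genes of retinoid metabolism were counted against the shares of all genes called, 13.7%, 14.0% and 0.522% in the 3 pairwise comparisons (28.8%, 28.6% and 6.23% unadjusted), and at these list sizes no list is said to differ from them. Of 23 further enzymes and carriers of retinol and retinal, among them Rdh11, Dhrs3, Abca4 and Rrh, 18 were tested and 0 passed in any comparison in edgeR, with 4, 2 and 0 at an unadjusted p under 0.05 in the 3 pairwise comparisons (DESeq2 called 1, 0 and 0, and limma-trend 0 in each), and with a median of 0.031 in FUN025/+ and -0.014 in FUN025/FUN025 against WT. Abca4, the photoreceptor and RPE retinoid flippase, was 491 ± 49.9, 523 ± 32.6 and 477 ± 40.5 CPM, and Rrh, the RPE opsin peropsin, 184 ± 12.7, 211 ± 29.7 and 189 ± 16.5 CPM, in WT, FUN025/+ and FUN025/FUN025. Of 13 genes of retinoic acid synthesis, breakdown and reception, 1 was called, the receptor Rxrb, which fell in FUN025/+ from 55.4 ± 2.17 to 49.8 ± 1.34 CPM (-0.15, adjusted p = 0.0314). This call was lost in 10 of 29 settings, and with the offset for GC content and length the estimate was -0.017 (adjusted p = 0.861). In FUN025/FUN025 against WT 0 of the 13 were called by edgeR, DESeq2 or limma-trend, with 4 at an unadjusted p under 0.05 in each.

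Of 7 transcription factors of the RPE, Lhx2 fell in FUN025/FUN025, from 79.0 ± 4.78 to 59.8 ± 9.33 CPM (-0.40, CI -0.62 to -0.19, adjusted p = 0.0148, edgeR), and the groups did not overlap. Otx2, a regulator of RPE genes, was 378 ± 8.47, 365 ± 29.6 and 364 ± 26.6 CPM and Mitf 139 ± 18, 169 ± 19.8 and 170 ± 28.1 CPM in WT, FUN025/+ and FUN025/FUN025, and neither passed in edgeR. In FUN025/+ against WT edgeR and limma-trend called 0 of the 7, with 3 at an unadjusted p under 0.05 in each, and DESeq2 called 2. Of the 12 RPE markers, Trpm3, a cation channel, rose in both mutant groups (1350 ± 52.7 CPM in WT, 1600 ± 113 in FUN025/+ and 1650 ± 124 in FUN025/FUN025), by 0.25 (adjusted p = 0.0182) and 0.29 (adjusted p = 0.00815), and the other 11 did not pass. Of 13 tested bestrophins and ion transporters, Slc12a2, a sodium, potassium and chloride co-transporter, rose from 278 ± 20.5 CPM in WT to 350 ± 23.5 in FUN025/+ (0.33, adjusted p = 0.00238) and 393 ± 27.8 in FUN025/FUN025 (0.50, adjusted p = 7.6e-05). Clcn3, an endosomal chloride exchanger, rose from 141 ± 10.6 to 172 ± 7.93 CPM in FUN025/+ (0.28, adjusted p = 0.00202) and 162 ± 8.97 in FUN025/FUN025 (0.19, adjusted p = 0.0282), and Slc16a3, a lactate transporter, was lower in FUN025/+ (-0.44, adjusted p = 0.0470), a call lost in 14 of 29 settings (adjusted p up to 0.185). The call of Clcn3 in FUN025/FUN025 was lost in 7 of 29 settings (up to 0.157) and that of Trpm3 in FUN025/+ in 4 (up to 0.0788). Between the mutants edgeR and limma-trend called 0 genes of these 5 lists, with 0, 1, 1, 3 and 3 at an unadjusted p under 0.05 in the order of this account, and DESeq2 called 1, among the ion transporters.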

How the data were processed

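The authors extracted total RNA from the posterior eyecups of each mouse, enriched poly(A) RNA with oligo(dT), prepared NEBNext Ultra libraries and sequenced read pairs. Per the submitters' processing notes, FastQC 0.11.8, Trimmomatic 0.39, HISAT2 2.1.0, SAMtools and featureCounts 2.0.0 were used with GRCm38. The annotation release and strand setting are not given in the sources used here, so reads of overlapping genes cannot be told apart. The deposited values are whole-number counts per Ensembl gene in 1 file per mouse, with no normalization.

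From these counts, genes in the lowest 15% by variance and those failing filterByExpr were removed, which left 18979 of 55421. The 15 libraries entered 1 edgeR 4.0.16 quasi-likelihood fit (TMM, robust) in R 4.3.3, with Benjamini-Hochberg adjustment over all genes tested and a threshold of 0.05. Comparisons were the 3 genotype pairs and the change per mutant allele. Correlations used log2 CPM (prior count of 2) minus genotype means. Of the listed genes, 55240 were in GENCODE M21, which gave names, positions and exon lengths. Alternatives were DESeq2 1.42.0, limma-trend 3.58.1, other scalings and filters, thinning to 10903183 counts, an offset for GC content and length, RPE or rod marker covariates, the replicate number as a block, and leaving out each mouse. The scripts were tested on simulated counts. Named were all 9 members, genes of the other lists with an adjusted p under 0.05, and the 3 genes most like each member; some of these are not reported here. The members and lists were chosen with earlier results of these data known. Sex is not labelled per mouse and was not used. The mice were separate animals, and intervals on levels cover the spread between them.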

Additional observations from a re-analysis of the deposited data

Results flagged for a closer look

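In 2 of 78 sets of 4 to 6 libraries (the members and the summed gene lists by genotype), 1 library stood apart from the rest of its group, where chance gives about 1 in 20. The summed level of the ciliary body and iris markers was 7100 CPM in FUN025/+ replicate 1, below the 7950 to 8270 CPM of the other heterozygotes. That of the melanocyte and pigment markers was 10000 CPM in WT replicate 2, above the 8820 to 8950 CPM of the other WT mice, and this was also the library with the most rod marker RNA. No member was affected in this way in any genotype.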

How the results depend on the processing

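Across 14 other settings and 15 fits that each left out 1 mouse, members past the threshold stayed at 0 except for a count of 1 with the RPE marker covariate in each of the 4 comparisons, with the rod marker covariate in FUN025/FUN025 against WT (Rlbp1) and against FUN025/+ (Rdh10), with DESeq2 between the mutants (Rdh10), and without FUN025/+ replicate 4 in FUN025/+ against WT and between the mutants (Rdh10), so that leaving out a mouse gave 0 to 1 in these 2 comparisons. The number of genes past the threshold moved by over 1.5 times in 1 of 29 settings in each pairwise comparison. For the change per allele it did so in 7 of 28, among them leaving out any of the 4 WT mice. The change per allele gave 1689 genes, 2568 with the RPE marker covariate, 788 with the rod marker covariate and 658 to 1736 leaving out a mouse. Leaving out a mouse gave 1433 to 2719 genes for FUN025/+ against WT and 1519 to 2697 for FUN025/FUN025 against WT, the lowest of these without WT replicate 4, and 68 to 106 between the mutants, where edgeR called 99 and DESeq2 171. The cause was not tested.

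Same-numbered mice of different genotypes did not deviate together (correlations of -0.38 to 0.13), so the numbers do not pair the samples. With the replicate block the change per allele gave 671 genes, Rlbp1 in FUN025/+ against WT was -0.0040, Stra6 in FUN025/FUN025 against WT was -0.049, no member was called, and Ttr with both the RPE marker covariate and the block was 0.34 against WT (adjusted p = 0.0602) and 0.39 against FUN025/+ (adjusted p = 0.154).

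Directions that turned were mostly of values near 0. With the RPE marker covariate the change per allele was 0.022 for Lrat, 0.011 for Rdh10, 0.022 for Rgr, 0.014 for Rpe65 and 0.069 for Stra6. For FUN025/FUN025 against WT it gave 0.042 for Lrat, 0.00027 for Rdh10, 0.033 for Rgr and 0.016 for Rpe65, and between the mutants 1e-04 for Lrat and 0.093 for Stra6. With the rod marker covariate FUN025/+ against WT was -0.086 for Rdh5, -0.00031 for Rgr, -0.11 for Rlbp1 and -0.034 for Stra6, and FUN025/FUN025 against WT was -0.10 for Stra6. Stra6 also turned per allele with upper quartile scaling (0.0050), thinning (0.0015) and the offset for GC content and length (0.048), and in FUN025/FUN025 against WT with library totals alone (-0.0014), limma-trend (-0.0020) and no low-count filter (-0.00018). Leaving out a mouse moved Stra6 from -0.032 to 0.029 per allele and from -0.055 to 0.057 against WT, and Ttr in FUN025/+ against WT from -0.077 to 0.045. Of the other genes named, Slc12a2 passed in every setting run, whereas Rxrb missed the threshold in 10 of 29 settings, Slc16a3 in 14, Clcn3 in FUN025/FUN025 against WT in 7, Trpm3 in FUN025/+ against WT in 4 and Lhx2 in FUN025/FUN025 against WT in 2.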
